A study of Mus musculus with 9 samples.

Results

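CD138+ plasma cells of the spleen of kFRA mice were compared by RNA sequencing with those of wild-type (WT) mice, across the genes outside the immunoglobulin heavy (Igh), kappa (Igk) and lambda (Igl) segments. The comparison rests on 6 of the 9 libraries of a series on light chain deposition disease (LCDD), in which a free immunoglobulin light chain forms deposits in tissue. 13940 genes other than immunoglobulin segments had enough counts to be tested, of 14199 in all. The question addressed was how plasma cells that make a pathogenic light chain without heavy chain differ from plasma cells that secrete whole antibodies. The 3 libraries of the third genotype, DH-LMP2A, entered the same model and are cited where their level bears on a gene.

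Per the labels, all mice were 3 months old, had not been immunized and had a mixed C57/BL6x129/SVxBALB/c background. Each library holds the cells that CD138 beads recovered from the spleen of 1 mouse, so the 3 libraries of a genotype are 3 animals, and the recovered fraction was not pure. The genotypes are given only as kFRA, WT and DH-LMP2A. As background from what is known of the model, the kFRA allele places a variable light chain gene of a patient with LCDD in the mouse kappa locus, so that the light chain is made throughout the B cell lineage and not only in plasma cells. The DH-LMP2A allele places LMP2A, a viral membrane protein that mimics a signal of the B cell receptor, in the heavy chain locus. Whether the kFRA mice sampled here also carried DH-LMP2A is not stated in the labels. The counts showed little heavy chain: Ighm, the constant region of IgM, was at 9008, 6981 and 10470 counts per 1000000, scaled by TMM (CPM), in kFRA replicates 1, 2 and 3, against 168600, 154300 and 184300 CPM in WT replicates 1, 2 and 3. Igkc, the constant region of the kappa light chain, was at 432000, 216000 and 472300 CPM in kFRA and at 98080, 116700 and 161800 CPM in WT. All values below are given in this order of replicates.

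A plasma cell is a B cell that has become a secretory cell. It switches off the B cell programme set by PAX5, and the factors BLIMP-1, IRF4 and XBP1 enlarge its endoplasmic reticulum (ER). Chaperones and disulfide isomerases there fold antibody chains, and BiP holds back heavy chains until they pair with light chains. Chains that do not fold are sent back to the cytosol for ER-associated degradation. The unfolded protein response adjusts this machinery through the sensors IRE1, PERK and ATF6. PERK also feeds the integrated stress response, in which ATF4 induces CHOP, a factor tied to cell death.

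The libraries held between 15449026 and 21558128 counts, of which 29.21 to 55.41% fell on immunoglobulin segments. kFRA replicate 2 stood apart from the other kFRA libraries: 1679 genes differed at least 2-fold between it and the mean of the others, against 661 for replicate 1 and 1104 for replicate 3, and 540 to 763 for the WT libraries. It also had the highest level of pancreatic acinar markers, a tissue that lies against the spleen, with a summed 2233 CPM over 10 genes against 23.37 to 289.6 CPM in the other 5 libraries. The plasma cell markers were abundant in every library, with a summed level of 30450, 20440 and 32030 CPM in kFRA and of 18900, 24140 and 23100 CPM in WT. Most of each sum came from the 1 gene Jchain. Of the 8 markers, 2 were higher and 1 lower in kFRA by the test used below, against 6.78% and 9.53% of all genes. Xist, transcribed from the inactive X chromosome of females, was high in kFRA replicate 2 and in WT replicates 1 and 3, so both groups held animals of both sexes. In fits without kFRA replicate 2, the kFRA libraries left were low in Xist, at 1.3 and 3.136 CPM. The WT libraries of those fits still held both sexes.

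Markers of other spleen cells differed between the groups. Over 8 B cell markers the summed level was 245.2, 282.2 and 231.9 CPM in kFRA and 523, 620.1 and 311.4 CPM in WT. 8 macrophage and monocyte markers summed to 1916, 3265 and 1958 CPM against 6176, 4424 and 3520 CPM. 8 granulocyte markers, 7 of them tested, summed to 20.02, 34.42 and 38.6 CPM against 450.8, 1190 and 484.4 CPM. For each of these lists every kFRA library lay below every WT library. The erythroid markers went the other way, with 1167, 2297 and 2806 CPM in kFRA against 39.57, 186.4 and 342 CPM in WT. Of the markers of these 4 lists that were tested, none was without counts in either group. In bulk RNA, fewer cells of a type and less RNA per cell cannot be told apart.

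**Figure D1:**
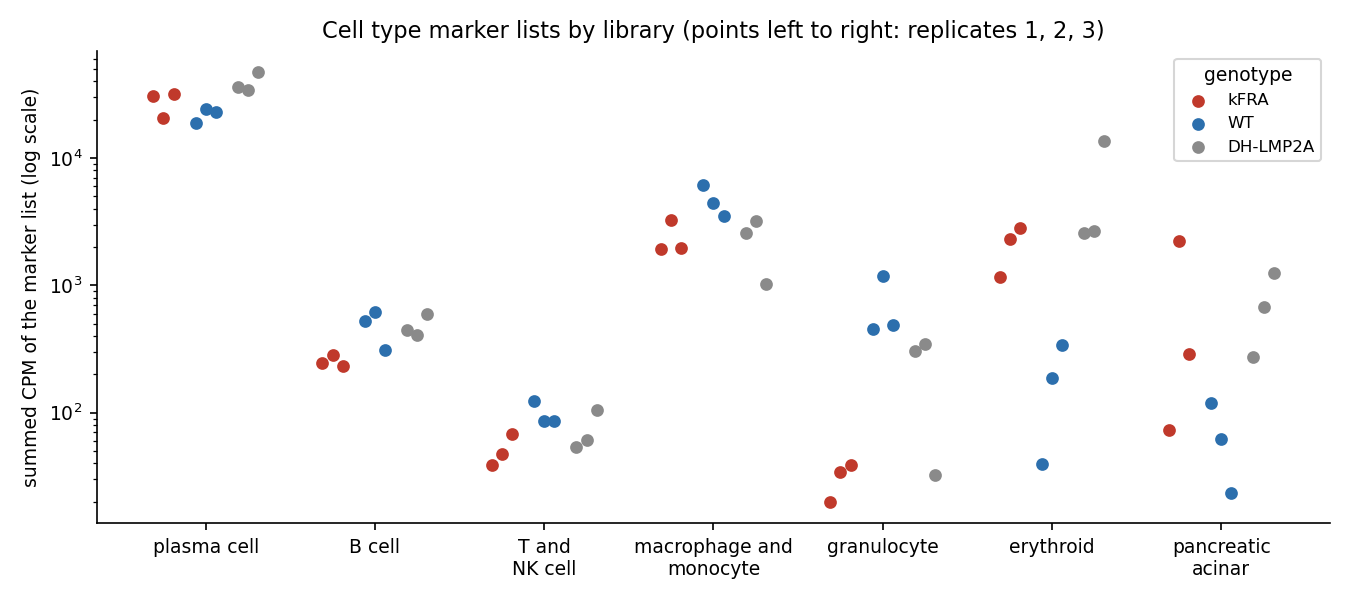
Summed CPM of 7 lists of cell type markers (log scale) in each library, with 1 point per mouse and colours for the genotypes kFRA, WT and DH-LMP2A. The kFRA libraries lie below the WT libraries for B cell, T and NK cell, macrophage and granulocyte markers and above them for erythroid markers, and kFRA replicate 2 has 2233 CPM of acinar markers.

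By edgeR's quasi-likelihood test, with a Benjamini-Hochberg adjusted p-value under 0.05 as the threshold, 2274 of 13940 genes (16.3%) differed between kFRA and WT. Of these, 945 (6.78% of the genes tested) were higher and 1329 (9.53%) lower in kFRA. Counted by overlap alone, all 3 kFRA libraries lay above all 3 WT libraries for 2006 genes (14.4%) and below them for 2616 genes (18.8%). The median log2 fold change of all genes was −0.025. With library size as the sole scaling it was 0.185, and 2358 of 13940 genes were higher and 671 lower. Counts of list members under that scaling stand beside these numbers. Without kFRA replicate 2 the count rose to 5379 of 14250 genes (37.7%), of which 2723 (19.1%) were higher and 2656 (18.6%) lower. Counts of list members without kFRA replicate 2 stand beside these 19.1% and 18.6%. The count fell to 1049 without kFRA replicate 1 (404 higher, 645 lower) and to 1295 without kFRA replicate 3 (493 higher, 802 lower). It fell to 1448 without WT replicate 1 (543 higher, 905 lower) and to 1024 without WT replicate 2 (323 higher, 701 lower). Without WT replicate 3 it was 1835 (674 higher, 1161 lower). Between 14188 and 14315 genes were tested in these fits, and the counts of list members in them stand beside these numbers.

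A covariate of 34 markers of B cells, T and NK cells, macrophages and granulocytes left 39 genes (0.280%), of which 24 (0.172%) were higher and 15 (0.108%) lower. The mean log2 CPM of these markers was 2.57, 3.03 and 3.54 in kFRA and 4.69, 4.72 and 4.28 in WT. These means were computed with a smaller added count than the fitted covariate, so they differ somewhat from it. By them the groups do not overlap, so marker level and genotype cannot be told apart in these libraries. The marker levels move with most of the gene groups described below, and their part in those results was not tested. Unless stated otherwise, the genes named below did not pass in the fit with this covariate.

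**Figure D2:**
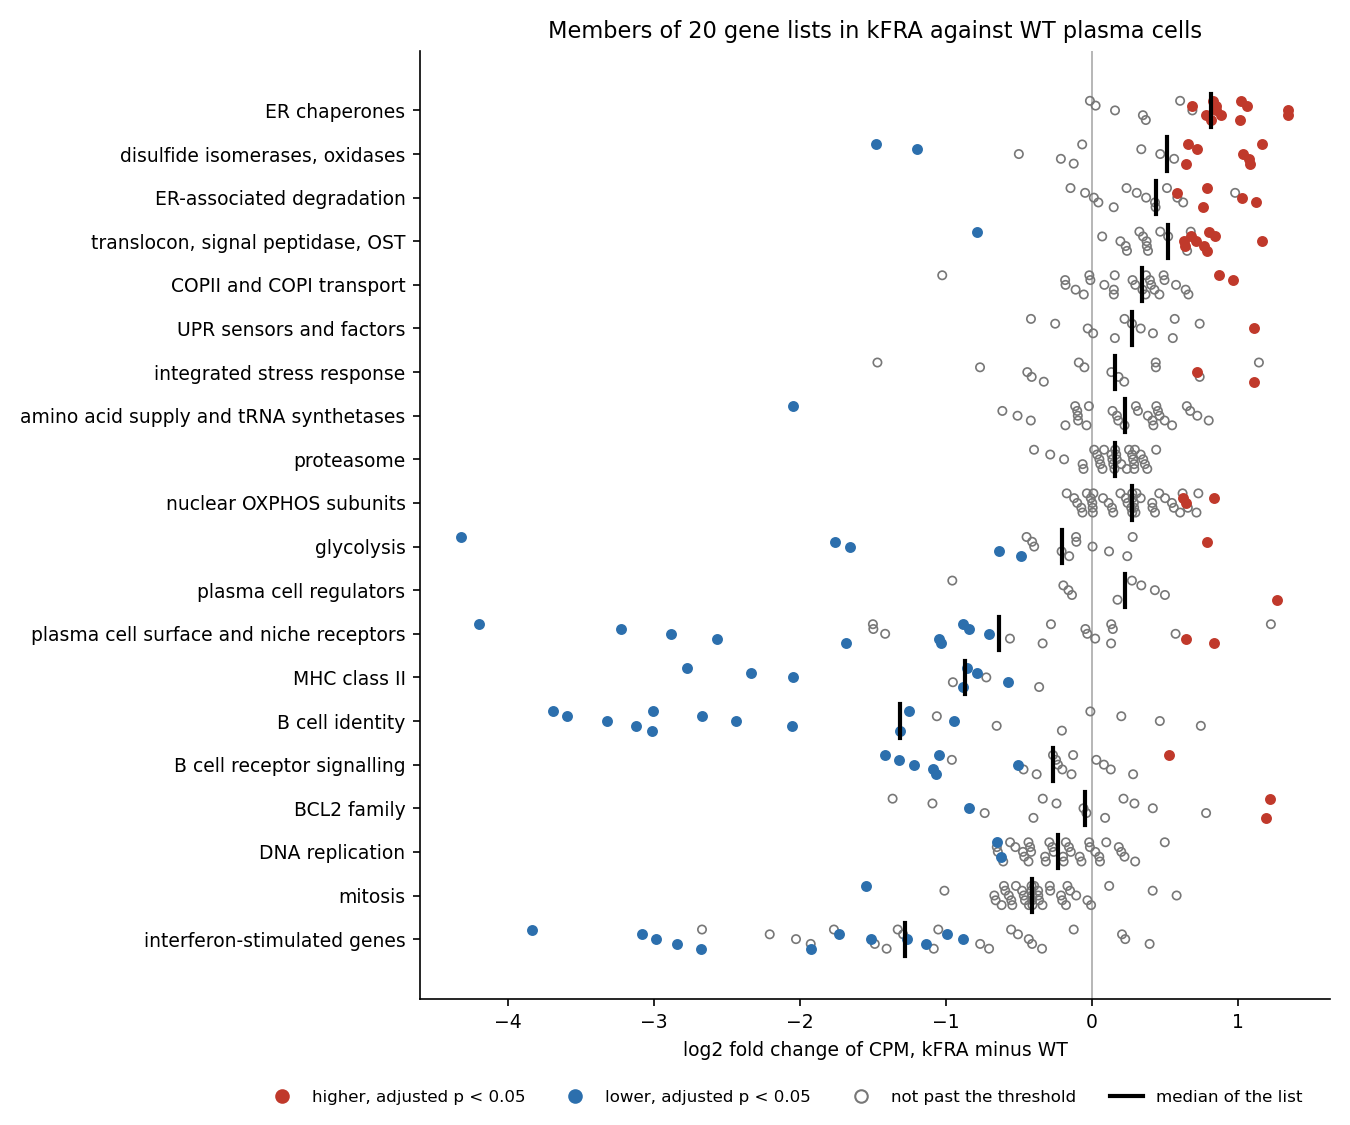
Log2 fold change of CPM (kFRA minus WT) for each tested member of 20 of the 28 gene lists, 1 row per list, with the median of the list as a black bar. Filled points passed the threshold of adjusted p under 0.05. Red points crowd the first 4 rows, the ER folding and translocation lists, and blue points the B cell, MHC class II, surface receptor and interferon rows.

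Of 19 ER chaperones, 12 rose in kFRA and none fell, against 6.78% and 9.53% of all genes. The median log2 fold change was 0.81. Without kFRA replicate 2, 15 rose, against 19.1% of all genes, and the median was 1.0. The count fell to 2 without kFRA replicate 1, 5 without kFRA replicate 3, 3 without WT replicate 1 and 1 without WT replicate 2, and was 14 without WT replicate 3. In the same order of fits, 404, 493, 543, 323 and 674 of all genes rose. With a covariate of Xist level, where 714 of all 13940 genes rose, 7 members rose (median 0.78). With the marker covariate the median was 0.24 and no member passed.

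Hspa5 (chromosome 2, 34771970 to 34777547, coordinates throughout in GRCm38), which encodes BiP, was at 4698, 3409 and 4345 CPM in kFRA and 1981, 1689 and 3060 CPM in WT. The groups did not overlap, and the log2 fold change was 0.89 (SE 0.27, edgeR adjusted p = 0.0482). It passed in 2 of the 6 fits that left out a library, and did not pass without kFRA replicate 1 or 3 or WT replicate 1 or 2. The ER member of the HSP90 family, Hsp90b1, had the largest difference in CPM of any gene that passed upward, with 9668, 8206 and 8387 CPM against 3869, 3792 and 4942 CPM (log2 fold change 1.06, SE 0.25, edgeR adjusted p = 0.0183). Its level in DH-LMP2A was 10710, 7802 and 8040 CPM, close to kFRA. The call of Hsp90b1 was lost without kFRA replicate 1 or WT replicate 1 or 2.

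Creld2, a disulfide isomerase-like chaperone, was at 1651, 939 and 1665 CPM in kFRA and 415, 480 and 779 CPM in WT (log2 fold change 1.35, SE 0.30, edgeR adjusted p = 0.0145). Manf, a small ER protein secreted under stress, changed by about as much (1.34, SE 0.35, edgeR adjusted p = 0.0302), but its level in kFRA replicate 2, 564 CPM, lay inside the WT range of 339 to 589 CPM. For both genes kFRA replicate 2 was the lowest kFRA library. Creld2 passed in 4 of the 6 fits that left out a library and Manf in 2. Dnajc3, a co-chaperone of BiP that also restrains PERK, was at 776, 532 and 651 CPM against 330, 333 and 451 CPM (log2 fold change 0.81, SE 0.20, edgeR adjusted p = 0.0214). Calr and Canx, the lectin chaperones of new glycoproteins, did not pass, with log2 fold changes of 0.60 and 0.16.

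Promoters of these genes were read for the ER stress response element, a motif bound by NF-Y and ATF6, in the 250 bases before the start sites given by RefSeq (GRCm38.p6). Searched as CCAAT, any 9 bases and CCACG on both strands, it occurs in 35 of 27025 genes with a promoter sequence (0.130%). It was in 6 of 16 chaperone genes with a sequence (37.5%): Hspa5, Hsp90b1, Calr, Canx, Dnajc3 and Creld2. In the other folding lists it was in Pdia6, Ero1b (Ero1lb in the table), Syvn1 and Derl3. A match describes the letters only. The stretches that end at the start site are shown for the genes that rose and whose window lies before the gene's start in the annotation, 5′ to 3′ along the gene's strand, with the motif in capitals. All 3 genes lie on the plus strand. For Creld2 it is chr15:88819496-88819645, for Dnajc3 chr14:118937782-118937931 and for Derl3 chr10:75893232-75893397.
Creld2: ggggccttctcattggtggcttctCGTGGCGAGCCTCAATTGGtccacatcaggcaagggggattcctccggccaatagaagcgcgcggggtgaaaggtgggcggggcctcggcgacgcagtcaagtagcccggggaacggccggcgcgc
Dnajc3: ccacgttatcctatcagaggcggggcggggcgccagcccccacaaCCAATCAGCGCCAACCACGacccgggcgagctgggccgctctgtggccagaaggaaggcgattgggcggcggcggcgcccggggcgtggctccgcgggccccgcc
Derl3: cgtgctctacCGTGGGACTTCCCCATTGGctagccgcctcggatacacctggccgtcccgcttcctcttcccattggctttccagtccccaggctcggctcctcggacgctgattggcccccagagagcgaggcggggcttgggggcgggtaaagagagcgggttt
In Creld2 and Derl3 the motif lies on the opposite strand. It begins 126 bases before the start site in Creld2, 105 in Dnajc3 and 156 in Derl3.

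Of 16 disulfide isomerases and ER oxidases, which form and rearrange the disulfide bonds of antibody chains, 7 rose and 2 fell (median 0.52). Of all genes 6.78% rose and 9.53% fell. Without kFRA replicate 2 the counts were also 7 and 2, against 19.1% and 18.6% of all genes. Pdia6 was at 1285, 1191 and 1361 CPM in kFRA and 499, 565 and 750 CPM in WT (log2 fold change 1.08, SE 0.21, edgeR adjusted p = 0.00743), a call that held whichever of the 6 libraries was dropped. Pdia4 rose by about as much (1.17, SE 0.25, edgeR adjusted p = 0.0122), as did the oxidase gene Ero1lb (1.04, SE 0.17, edgeR adjusted p = 0.00336). For these 3 genes every kFRA library lay above every WT library. The call of Pdia4 was lost without WT replicate 2. Txndc5, a disulfide isomerase abundant in plasma cells, went the other way. It was at 1309, 1364 and 1027 CPM in kFRA and 2192, 3168 and 3132 CPM in WT, and at 2782, 2441 and 2747 CPM in DH-LMP2A, so that kFRA lay below both genotypes. Its log2 fold change was −1.20 (SE 0.22, edgeR adjusted p = 0.00634) against WT, where the call held whichever of the 6 libraries was dropped, and −1.11 (edgeR adjusted p = 0.0206) against DH-LMP2A, a comparison that shares the kFRA libraries and in which 4.30% of all genes passed, 1.74% higher and 2.55% lower in kFRA. The other member that fell, Pdia5, was low, at 0.523 to 1.13 CPM against 1.85 to 2.18 CPM, and passed in 1 of the 6 fits. Over the list, 3 members rose without WT replicate 2 and 4 without kFRA replicate 1, where 323 and 404 of all genes rose.

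**Figure D3:**
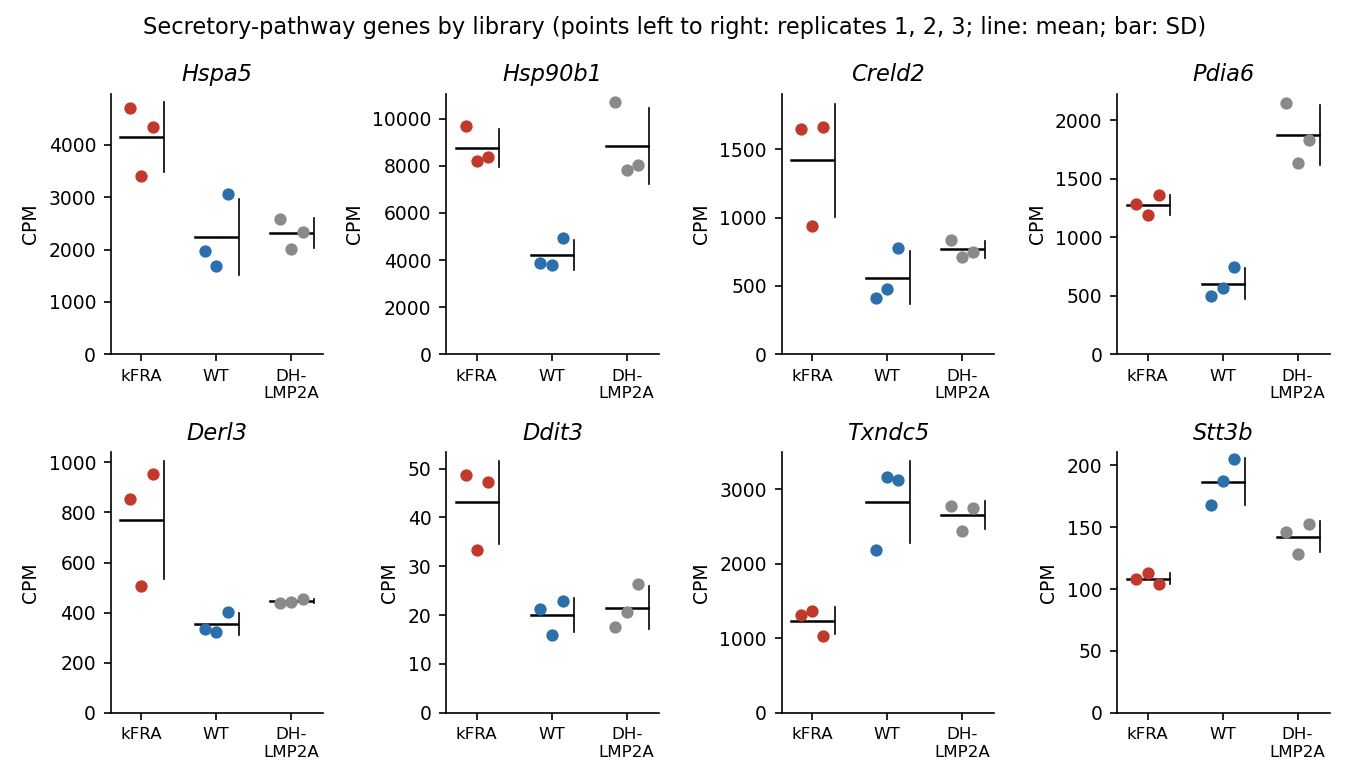
CPM of 8 genes of the secretory pathway and its stress response in each library, with 1 point per mouse, the mean as a line and the SD as a bar (n = 3 per genotype). Hspa5, Creld2, Derl3 and Ddit3 are highest in kFRA, Hsp90b1 and Pdia6 are as high or higher in DH-LMP2A, and Txndc5 and Stt3b are lowest in kFRA.

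Of 23 genes of the translocon, the signal peptidase and the oligosaccharyltransferase, through which nascent chains enter the ER, 9 rose and 1 fell (median 0.52). Of all genes 6.78% rose and 9.53% fell. Without kFRA replicate 2, 14 rose and 1 fell, against 19.1% and 18.6% of all genes. The number that rose was 1 without kFRA replicate 1, kFRA replicate 3 or WT replicate 1, and 0 without WT replicate 2. Of all genes 404, 493, 543 and 323 rose in those fits. With a covariate of Xist level, where 714 of all genes rose, 4 members rose. Dad1, a subunit of the oligosaccharyltransferase, was at 195, 108 and 208 CPM in kFRA and 69.7, 66.4 and 91.6 CPM in WT (log2 fold change 1.17, SE 0.24, edgeR adjusted p = 0.0113). Stt3b, the catalytic subunit that glycosylates sites skipped by its paralogue STT3A, was the member that fell. It was at 108, 113 and 104 CPM against 168, 187 and 205 CPM (log2 fold change −0.79, SE 0.13, edgeR adjusted p = 0.00377), a call that held whichever of the 6 libraries was dropped. Stt3a did not pass (0.20).

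ER-associated degradation genes numbered 5 of 19 that rose and none that fell (median 0.44), against 6.78% and 9.53% of all genes. Without kFRA replicate 2, 12 rose, against 19.1% of all genes. Derl3, a channel component of secretory cells, was at 853, 505 and 955 CPM in kFRA and 333, 324 and 404 CPM in WT (log2 fold change 1.12, SE 0.23, edgeR adjusted p = 0.011). Syvn1, the ubiquitin ligase HRD1, was at 627, 604 and 752 CPM against 384, 313 and 454 CPM (0.79, SE 0.18, edgeR adjusted p = 0.0166). The lectins Edem2 and Erlec1 rose by 1.03 and 0.76, with DH-LMP2A above kFRA for both. The fifth was Os9, with 0.58. Without WT replicate 2 no member passed. There were 2 without WT replicate 1 or kFRA replicate 3, and 3 without kFRA replicate 1. Of all genes 323, 543, 493 and 404 rose in these fits, in the order named.

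Among 27 genes of COPII and COPI transport, 2 rose and none fell (median 0.35), a share near the 6.78% of all genes that rose. 13 rose without kFRA replicate 2, where 19.1% of all genes rose, and 15 with library size as the sole scaling, where 2358 genes did. The members that passed with all libraries were Kdelr1, a receptor that returns escaped chaperones to the ER, at 270, 209 and 341 CPM in kFRA against 120, 128 and 171 CPM in WT, and Preb, the exchange factor that starts COPII coats, at 375, 237 and 421 CPM against 195, 166 and 204 CPM. Both had a log2 fold change near that of Hspa5 (0.97 and 0.87), and in DH-LMP2A Preb was at 200, 180 and 166 CPM, the WT range. Without kFRA replicate 1 or 3 or WT replicate 1 or 2, where 323 to 543 of all genes rose, no member of the list passed. With the marker covariate its median turned to −0.14.

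Of 13 stress sensors and their factors 1 rose, Ddit3, which encodes CHOP, a share near the 6.78% of all genes. The number was 4 without kFRA replicate 2, where 19.1% of all genes rose. Ddit3 (chromosome 10, 127290774 to 127296288) was at 48.8, 33.3 and 47.2 CPM in kFRA, 21.2, 16 and 22.8 CPM in WT and 17.6, 20.6 and 26.4 CPM in DH-LMP2A. Every kFRA library lay above every other library. The log2 fold change was 1.11 (SE 0.21, edgeR adjusted p = 0.00787) against WT. It overlaps Mars and Gm4189 on the opposite strand, so part of its counts may be theirs. Ppp1r15a, the phosphatase subunit GADD34 that ends the PERK signal, rose as the only further member among 16 tested genes of the integrated stress response, with 143, 110 and 151 CPM against 88.9, 60.8 and 95.6 CPM (0.72, SE 0.20, edgeR adjusted p = 0.0375). The call of Ddit3 held whichever of the 6 libraries was dropped. Without kFRA replicate 2, 4 genes of the integrated stress response rose and 3 fell, against 19.1% and 18.6% of all genes. Ppp1r15a passed in 2, and its call was lost without kFRA replicate 1 or 3 or WT replicate 1 or 2.

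Atf4 itself did not pass. It was at 504, 258 and 492 CPM in kFRA and 209, 235 and 307 CPM in WT (log2 fold change 0.74, SE 0.26, edgeR adjusted p = 0.0765), with kFRA replicate 2 inside the WT range. Without that replicate Atf4 passed. Xbp1 was at 2324, 2040 and 1853 CPM against 1166, 1944 and 2033 CPM and did not pass (0.27, SE 0.25, edgeR adjusted p = 0.447). The counts are per gene and do not separate the spliced form of Xbp1. Of 29 genes of amino acid supply and tRNA synthetases, several of them ATF4 targets, none rose and 1 fell, the cystine transporter gene Slc7a11 (−2.05, 1.37 to 1.94 CPM against 4.46 to 10 CPM). 9 of them rose without kFRA replicate 2, where 19.1% of all genes rose. None of 31 proteasome genes passed, with log2 fold changes between −0.40 and 0.44. 12 of these rose and 1 fell without kFRA replicate 2, against 19.1% and 18.6% of all genes in that fit.

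Of 10 plasma cell regulators 1 rose and none fell, against 6.78% and 9.53% of all genes. Without kFRA replicate 2, 1 rose and 2 fell, against 19.1% and 18.6%. The member that rose with all libraries was Eaf2, an elongation factor of the germinal centre and plasma cell stage, with 216, 170 and 415 CPM in kFRA against 140, 90.5 and 101 CPM in WT (log2 fold change 1.27, SE 0.34, edgeR adjusted p = 0.033). It passed only in the fits without kFRA replicate 2 or WT replicate 1, of the 6 that left out a library. Prdm1 (BLIMP-1) was at 235, 200 and 265 CPM against 235, 129 and 190 CPM, and Irf4 at 1001, 622 and 790 CPM against 419, 527 and 845 CPM. Both ranges overlapped, and neither passed (0.34 and 0.43). Jchain, which links IgM and IgA polymers, was at 23245, 14680 and 25428 CPM against 15678, 19911 and 17886 CPM and did not pass either (0.24). Sdc1, which encodes CD138, the protein the beads bind, was at 693, 509 and 632 CPM against 302, 394 and 537 CPM (0.57, SE 0.24, edgeR adjusted p = 0.12). Mzb1, an ER protein that helps assemble antibodies, rose, with 2611, 2016 and 2791 CPM against 810, 983 and 1384 CPM (1.22, SE 0.25, edgeR adjusted p = 0.0107). It was higher still in DH-LMP2A, at 3950, 3236 and 3895 CPM.

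Of 26 surface genes and receptors that place a plasma cell in its niche, 10 fell and 2 rose (median −0.64), against 9.53% and 6.78% of all genes. 12 fell and 3 rose without kFRA replicate 2, against 18.6% and 19.1% of all genes. With library size as the sole scaling, where 671 of all genes fell and 2358 rose, 6 members fell and 3 rose. Cxcr3, the receptor for chemokines of inflamed tissue, was at 0.752, 2.00 and 2.01 CPM in kFRA and 29.1, 22.6 and 37.3 CPM in WT, 18.4-fold lower (log2 fold change −4.20, SE 0.42, edgeR adjusted p = 0.000185). DH-LMP2A was as low, at 0.635, 1.16 and 1.74 CPM. The gut-homing genes Itgb7 and Ccr9 fell by 2.89 and 3.23 on the log2 scale.

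Tnfrsf17, which encodes BCMA, the survival receptor for APRIL, was at 19.2, 12.4 and 14.4 CPM in kFRA and 41.3, 47.2 and 59.5 CPM in WT (log2 fold change −1.69, SE 0.26, edgeR adjusted p = 0.00253). Of the members of the 28 gene lists it was the only one that also passed with the marker covariate (edgeR adjusted p = 0.036). The genes that rose were Il6st, the signalling chain of the IL-6 receptor, at 206, 238 and 166 CPM against 113, 114 and 115 CPM, and Slamf7, a plasma cell surface protein, at 354, 322 and 290 CPM against 239, 205 and 174 CPM. No member rose without kFRA replicate 1 or WT replicate 2, and 6 fell in each of those fits. Of all genes 404 and 323 rose there, and 645 and 701 fell. Cxcr4, the receptor that holds plasma cells in bone marrow, did not pass (0.14). Cd28 was nearly level, at 45 to 50 CPM against 45.5 to 53.6 CPM.

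**Figure D4:**
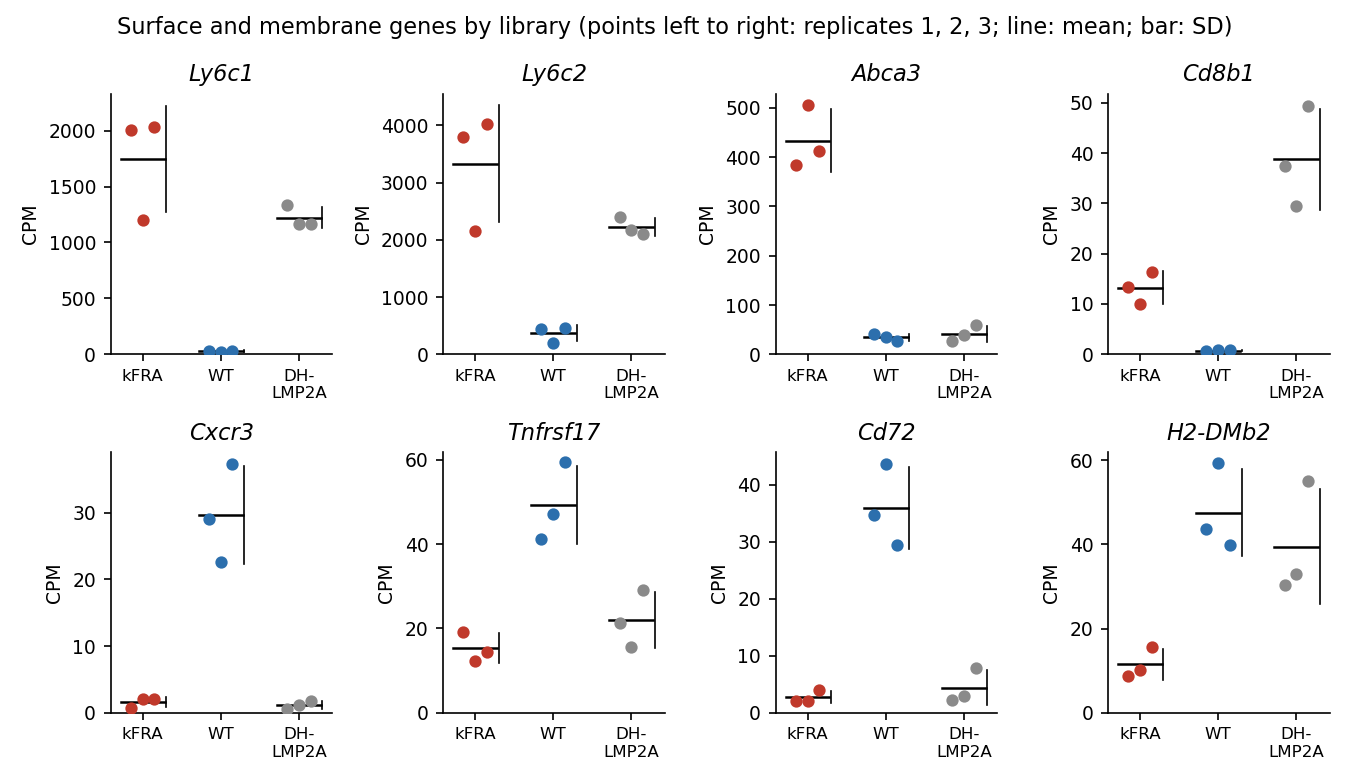
CPM of 8 genes of surface or membrane proteins in each library, with 1 point per mouse, the mean as a line and the SD as a bar (n = 3 per genotype). Ly6c1, Ly6c2 and Cd8b1 are high in kFRA and DH-LMP2A and low in WT, Abca3 is high in kFRA alone, and the 4 genes of the lower row are lower in kFRA than in WT.

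2 genes of the Ly6 family, whose membrane-anchored proteins mark subsets of lymphocytes, rose. Ly6c1 (chromosome 15, 75044018 to 75048830) was at 2006, 1200 and 2036 CPM in kFRA and 31.2, 17.4 and 32.6 CPM in WT, 64.6-fold higher (log2 fold change 6.01, SE 0.35, edgeR adjusted p = 3.65e-06). Ly6c1 also passed with the marker covariate (edgeR adjusted p = 0.00481). Its neighbour Ly6c2 was at 3804, 2161 and 4026 CPM against 447, 204 and 454 CPM (3.18, SE 0.37, edgeR adjusted p = 0.000469). Both were also high in DH-LMP2A, at 1169 to 1331 CPM for Ly6c1 and 2107 to 2399 CPM for Ly6c2. Reads of such close copies may be shared between them.

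Cd8b1, known as a chain of the T cell coreceptor CD8, was at 13.5, 9.94 and 16.4 CPM in kFRA against 0.557, 0.816 and 0.828 CPM in WT (log2 fold change 4.17, SE 0.30, edgeR adjusted p = 1.68e-05). Cd8b1 passed with the marker covariate as well (edgeR adjusted p = 0.0238). It was higher in DH-LMP2A, at 29.5 to 49.4 CPM. The T and NK cell markers summed to 38.95 to 67.81 CPM in kFRA and 85.78 to 123.4 CPM in WT. In DH-LMP2A they summed to 53.89 to 105.9 CPM. Which cells the Cd8b1 reads came from was not tested. Abca3 (chromosome 17, 24351950 to 24410201), a lipid transporter best known from lung, was chosen after its values were seen. It was at 384, 505 and 412 CPM in kFRA, 41.0, 34.4 and 26.8 CPM in WT and 26.9, 38.6 and 58.6 CPM in DH-LMP2A. The log2 fold change was 3.67 (SE 0.30, edgeR adjusted p = 4.5e-05) against WT and 3.39 (edgeR adjusted p = 0.000118) against DH-LMP2A. With the marker covariate it was 3.95 and did not pass (edgeR adjusted p = 0.0581).

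Of 19 genes of B cell identity, 12 fell and none rose (median −1.32), against 9.53% of all genes that fell. Without kFRA replicate 2, 14 fell and 1 rose, against 18.6% and 19.1% of all genes. With library size as the sole scaling, where 671 of all genes fell and 2358 rose, 9 members fell and 2 rose. Cd72, an inhibitory coreceptor, was at 2.12, 2.14 and 4.08 CPM in kFRA and 34.7, 43.6 and 29.4 CPM in WT (log2 fold change −3.69, SE 0.49, edgeR adjusted p = 0.00106). It was at 2.20, 3.02 and 7.92 CPM in DH-LMP2A. Pax5 was at 2.94, 9.80 and 8.59 CPM against 64.3, 78.8 and 30.5 CPM (−3.01, SE 0.61, edgeR adjusted p = 0.0104), and Cd22 and Bach2 fell by 3.60 and 3.12 on the log2 scale. Cd79a, a chain of the B cell receptor complex, was above WT in every kFRA library, at 712, 475 and 905 CPM against 344, 434 and 469 CPM, without passing (0.75, edgeR adjusted p = 0.0672). The lower genes moved with the B cell marker sum given above, whose 8 members all belong to this list and of which 5 fell. The number that fell in the list was 6 without kFRA replicate 1 and 7 without WT replicate 2, where 645 and 701 of all genes fell.

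Of 10 genes of antigen presentation by MHC class II, which B cells and macrophages share, 7 fell and none rose (median −0.87). Of all genes 9.53% fell and 6.78% rose. 7 also fell without kFRA replicate 2, where 18.6% of all genes fell. With library size as the sole scaling, where 671 of all genes fell, 4 members fell. H2-DMb2, a chain of the peptide editor H2-M, was at 8.62, 10.2 and 15.7 CPM in kFRA and 43.6, 59.4 and 39.7 CPM in WT (log2 fold change −2.05, SE 0.30, edgeR adjusted p = 0.0021). Ciita, the master activator of the class, was at 9.17, 12.2 and 4.52 CPM against 31.2, 64.6 and 35.6 CPM (−2.34, SE 0.49, edgeR adjusted p = 0.0121). The abundant chains fell less, H2-Aa by 0.86 and H2-Eb1 by 0.88 on the log2 scale, and Cd74, the invariant chain, did not pass, at 2628, 2444 and 2748 CPM against 2735, 3179 and 4135 CPM. The macrophage markers, lower in each kFRA library, moved with this list too. 4 members fell without kFRA replicate 1 or WT replicate 2, where 645 and 701 of all genes fell.

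Of 21 genes of B cell receptor signalling, 7 fell and 1 rose (median −0.27), against 9.53% and 6.78% of all genes. The kinase genes Lyn and Blk fell by 1.09 and 1.42 on the log2 scale and the phosphatase gene Ptpn6 by 1.05. Blk did not pass in any of the 6 fits that left out a library. The adaptor gene Blnk rose by 0.53 and passed only narrowly (edgeR adjusted p = 0.0492). The number that fell was 2 without kFRA replicate 1, 3 without kFRA replicate 3 or WT replicate 1, and 1 without WT replicate 2. Of all genes 645, 802, 905 and 701 fell in those fits. With library size as the sole scaling, where 671 of all genes fell, 1 member fell.

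Interferon-stimulated genes, the antiviral programme that type I interferons switch on, fell in 12 of 34 genes and rose in none (median −1.28), against 9.53% of all genes that fell. Without kFRA replicate 2, where 18.6% of all genes fell, 16 fell. With library size as the sole scaling, where 671 of all genes fell, 5 members fell. The number that fell was 1 without kFRA replicate 1, 2 without kFRA replicate 3 and 4 without WT replicate 1, where 1 member rose. It was 11 without WT replicate 2 and 11 without WT replicate 3. Of all genes 645, 802, 905, 701 and 1161 fell in these fits, in the order named. Oasl2, an oligoadenylate synthetase-like protein, was at 3.01, 5.23 and 1.57 CPM in kFRA and 68.4, 51.8 and 22.1 CPM in WT (log2 fold change −3.83, SE 0.73, edgeR adjusted p = 0.00738). Ifit3 was at 5.40, 6.47 and 2.70 CPM against 82.4, 20.1 and 13.7 CPM (−2.99, SE 0.74, edgeR adjusted p = 0.0235). Irf7, the factor that amplifies interferon, was at 27.5, 38.4 and 28.5 CPM against 252, 57.2 and 49.4 CPM, with a log2 fold change of −1.92. The calls of Ifit3 and Irf7 were lost without kFRA replicate 1 or 3 or WT replicate 1. WT replicate 1 was the highest library for these genes, while the other WT libraries still lay above kFRA. The DH-LMP2A libraries were as low as kFRA for Oasl2 (1.19 to 8.58 CPM) and Ifit3 (1.60 to 6.22 CPM). The macrophage marker sum was highest in WT replicate 1 as well.

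The interferon-stimulated response element, searched as GAAA, any 2 bases and GAAA on both strands of the same windows, occurs in 936 of 27025 genes (3.46%) and was in 13 of the 24 listed genes with a sequence (54.2%). 2 genes that fell are shown as examples, with the matches in capitals. For Ifit3 the stretch is chr19:34583363-34583528 on the plus strand, and for Isg15 chr4:156200819-156200968 on the minus strand.
Ifit3: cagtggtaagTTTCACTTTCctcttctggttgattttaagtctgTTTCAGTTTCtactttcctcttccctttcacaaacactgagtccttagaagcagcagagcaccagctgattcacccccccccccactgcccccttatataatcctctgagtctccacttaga
Isg15: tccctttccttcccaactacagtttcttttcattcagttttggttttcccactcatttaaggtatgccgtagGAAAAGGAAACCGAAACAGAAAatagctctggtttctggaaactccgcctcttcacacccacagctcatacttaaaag
Ifit3 holds 2 separate matches on the opposite strand, and Isg15 holds 3 matches that overlap each other.

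The cell cycle lists depended on kFRA replicate 2. Of 38 mitosis genes 1 fell, Pttg1, the securin that holds sister chromatids together until anaphase, at 3.76, 6.14 and 6.27 CPM in kFRA against 18.1, 15.6 and 13.7 CPM in WT (log2 fold change −1.54, SE 0.22, edgeR adjusted p = 0.0016). The median of the list was −0.41. In the fit without kFRA replicate 2, 25 fell and 1 rose, against 18.6% and 19.1% of all genes, and the median was −0.84. Mki67, a marker of cycling cells, was at 115, 433 and 122 CPM in kFRA and 283, 219 and 258 CPM in WT, with kFRA replicate 2 the highest library and the other kFRA libraries the lowest. Of 36 DNA replication genes 2 fell, Mcm6 and Pold1, below the 9.53% of all genes. Without kFRA replicate 2, 11 fell, against 18.6% of all genes. The median of this list, −0.23, was 0.003 with library size as the sole scaling.

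Among 16 tested genes of the BCL2 family, which decide between survival and apoptosis, 2 rose and 1 fell. Of all genes 6.78% rose and 9.53% fell, and the median of the list was −0.048. Bid, a death agonist activated by caspases, was at 58.0, 51.3 and 39.0 CPM in kFRA and 20.5, 21.5 and 23.0 CPM in WT (log2 fold change 1.19, SE 0.16, edgeR adjusted p = 0.00136). Bmf, a BH3-only protein that also promotes death, was at 133, 79.4 and 161 CPM against 61.5, 42.3 and 56.6 CPM (1.22, SE 0.26, edgeR adjusted p = 0.0124), a call lost without WT replicate 2. Bcl2l11, the BH3-only protein BIM, was lower, at 18.7, 19.7 and 23.8 CPM against 46.7, 33.7 and 31.1 CPM (−0.84, SE 0.18, edgeR adjusted p = 0.0124), a call lost without kFRA replicate 1. Mcl1, which plasma cells need to survive, was at 424 to 530 CPM against 344 to 504 CPM and did not pass (0.09, edgeR adjusted p = 0.744). Bid and Bmf were also high in DH-LMP2A, at 38.6 to 48.4 CPM and 102 to 136 CPM.

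Of 17 glycolysis genes 5 fell and 1 rose (median −0.21), against 9.53% and 6.78% of all genes. With library size as the sole scaling, where 671 of all genes fell and 2358 rose, 3 members fell and 3 rose (median 0.007). The lactate exporter gene Slc16a3 was at 0.821, 1.24 and 0.815 CPM in kFRA and 12.0, 25.6 and 21 CPM in WT (log2 fold change −4.32, SE 0.50, edgeR adjusted p = 0.000493). Hk2, the inducible hexokinase, was at 8.55, 16.5 and 9.41 CPM against 30.5, 35.4 and 43.0 CPM (−1.66, SE 0.26, edgeR adjusted p = 0.00318). The glucose transporter gene Slc2a3 fell by 1.76. Pdk1, a kinase that inhibits pyruvate dehydrogenase, was the gene that rose (0.79, SE 0.14, edgeR adjusted p = 0.00519). Of 42 nuclear genes of oxidative phosphorylation 3 rose, Ndufa1, Ndufa6 and Ndufs7, and none fell (median 0.28), a share near the 6.78% of all genes that rose. 26 rose without kFRA replicate 2, where 19.1% of all genes rose, and 24 with library size as the sole scaling, where 2358 genes did. No more than 2 passed in any other fit that left out a library. None of the 12 tested mitochondrial transcripts passed.

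The remaining lists are given beside the 6.78% of all genes that rose and the 9.53% that fell. They held 1 up and 2 down among 18 tested p53 targets, 2 down among 17 NF-kappaB genes, 2 down among 20 heat shock genes, 1 down among 32 autophagy and lysosome genes (whose median of −0.09 was 0.095 with library size as the sole scaling), 2 up and 1 down among 21 genes of peroxide defence, 2 down among 26 genes of lipid synthesis, and 1 down among 11 genes of the immunoproteasome and class I loading. In the fit without kFRA replicate 2, 19.1% of all genes rose and 18.6% fell. Its counts were 2 up and 2 down for p53 targets, 2 up and 3 down for NF-kappaB, and 3 up and 2 down for heat shock. They were 7 up and 2 down for autophagy and lysosome, 4 up and 5 down for peroxide defence, and 4 up and 3 down for lipid synthesis. The immunoproteasome list held 1 up and 1 down. Fas, the death receptor, fell from 12.2 to 14.1 CPM in WT to 2.24 to 4.92 CPM in kFRA, a log2 fold change of −1.99 (edgeR adjusted p = 0.00399). Gsr, which regenerates glutathione, fell by 1.57 and Gpx4, which removes lipid peroxides, rose by 0.97. Gpx4 passed in 1 of the 6 fits that left out a library and Gsr in 4.

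Many of the lowest fold changes were in genes of other blood cells and in members of gene families. S100a8, a calcium-binding protein of neutrophils, was at 1.98, 1.09 and 3.70 CPM in kFRA and 74.5, 262 and 93.9 CPM in WT (log2 fold change −6.01, SE 0.99, edgeR adjusted p = 0.00398), while S100a9, Retnlg and Il1f9 fell with it (−5.55, −5.69 and −6.21). These are granulocyte genes. S100a8 and S100a9 are themselves among the 7 tested granulocyte markers, of which 3 fell, against 9.53% of all genes. Apoe and Lyz2, both abundant in macrophages, were at 294, 393 and 348 CPM against 1833, 1275 and 1403 CPM and at 61.0, 108 and 123 CPM against 962, 327 and 487 CPM. Eps8l1, an actin regulator gene, had no count in kFRA and 11.9, 14.5 and 7.90 CPM in WT, at least 55.7-fold lower against a floor of 3 counts per library. Wipf3, another actin regulator gene, was at 0.205, 0.714 and 0.502 CPM against 25.9, 22.5 and 22.4 CPM and passed with the marker covariate (edgeR adjusted p = 0.0406). The lectin-like gene Clec2g had 6 counts in all over kFRA, and the ratio of WT to kFRA was 189 (95% interval 86.5 to 516, counting error only), but DH-LMP2A was as low, at 0.0846 to 0.229 CPM.

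Among the genes with the highest fold changes were pseudogenes, other transcripts without a protein and genes of other tissues. Several, among them Try5, Reg2 and Pnliprp2, are made by the exocrine pancreas and followed the acinar markers, with kFRA replicate 2 highest. Try5, a trypsinogen, was at 4.51, 175 and 32.8 CPM in kFRA and 2.84, 1.73 and 0.127 CPM in WT. Haemoglobin transcripts also rose. Hbb-bs, itself part of the erythroid marker list, was at 492, 950 and 1077 CPM against 15.6, 80.4 and 146 CPM (log2 fold change 3.38, SE 0.91, edgeR adjusted p = 0.0322). That call was lost without kFRA replicate 1 or 3 or WT replicate 1 or 2, and Try5, Reg2 and Pnliprp2 each lost theirs without any 1 of the WT libraries. Pnliprp2 also lost its call without kFRA replicate 2. The antisense transcript BC018473 had 99.9, 78.9 and 226 CPM in kFRA and 1 count in each WT library, a ratio of 2390 (95% interval 818 to 11600, counting error only). It had no count in DH-LMP2A.

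Ferritin, the iron store of the cell, showed a difference in which copy of its light chain gene was counted. Ftl2-ps (chromosome 4, 125504288 to 125504839) and Gm12164 (chromosome 11, 45829319 to 45829869), both annotated as processed pseudogenes, were at 584, 577 and 650 CPM and at 240, 232 and 246 CPM in kFRA. In WT they were at 0 to 0.318 CPM and 0.204 to 0.557 CPM. The functional gene Ftl1 was lower, at 1046, 1059 and 1141 CPM in kFRA against 3075, 2316 and 2585 CPM in WT (log2 fold change −1.30, SE 0.29, edgeR adjusted p = 0.0166), a call lost without kFRA replicate 1. Summed over the 3 loci the level was 1870, 1868 and 2038 CPM against 3076, 2316 and 2586 CPM, so every kFRA library remained below every WT library. Both pseudogenes passed with the marker covariate (edgeR adjusted p = 0.000651 and 0.000726). Reads of such near-identical copies can be placed on any of them, so the level of each locus is uncertain. The gene of the ferritin heavy chain, Fth1, was at 672, 755 and 751 CPM against 1268, 1087 and 1062 CPM and did not pass (−0.65, edgeR adjusted p = 0.0817).

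**Figure D5:**
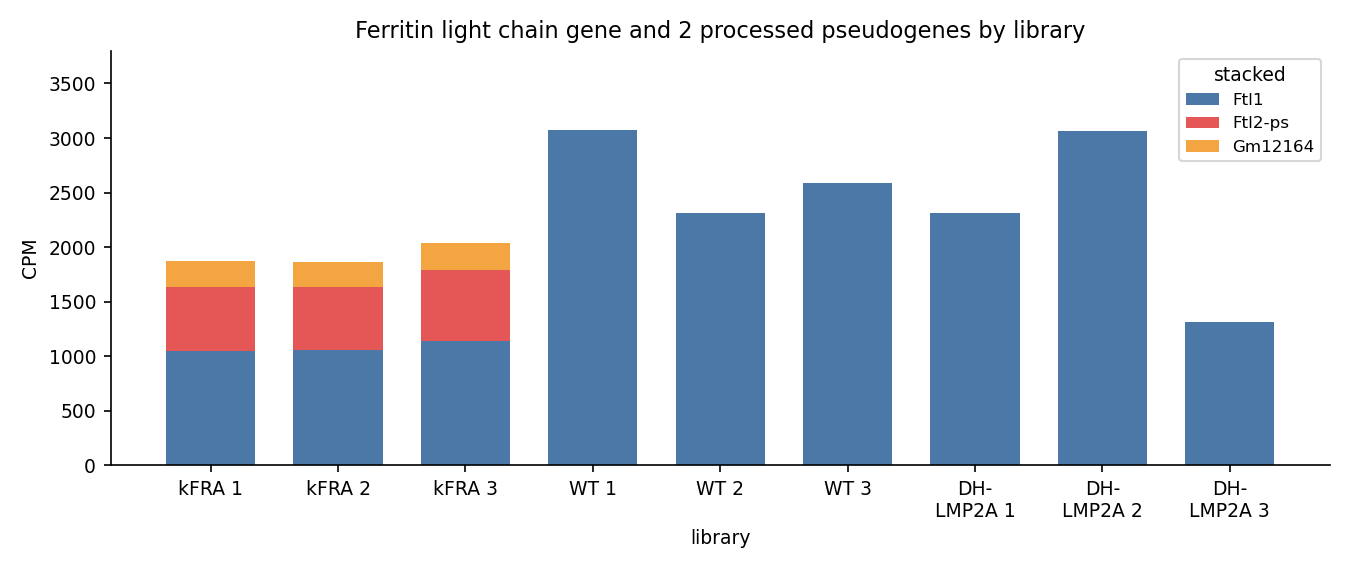
Stacked bars of the CPM counted on Ftl1 and on the pseudogenes Ftl2-ps and Gm12164 in each of the 9 libraries. The pseudogenes take 577 to 650 and 232 to 246 CPM in the kFRA libraries and under 1 CPM in the others.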

How the data were processed

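The authors deposited 1 table of raw read counts per gene, per the file headers, with 1 column for each of the 9 libraries, and all 9 columns were used. Per the labels' protocols, libraries were made with the TruSeq Stranded mRNA kit and sequenced paired-end on a NextSeq 500. STAR 2.4.0a, featureCounts, Subread 1.5.0-p3, DESeq2 and the builds mm10 and GRCm38 are named per the submitters' processing notes. The strand setting, the treatment of reads with several matches and the annotation release are not given in the sources used here. Reads of overlapping genes may therefore be mixed. Of the genes described, Abca3, Bach2, Bid, Ccr9, Cd22, Cd72, Ciita, Ddit3, Eps8l1, Hsp90b1, Irf7, Jun, Lyn, Manf, Pax5, Pdia6, Ppp1r15a, Preb, Ptpn6, Slamf7, Syvn1 and Wipf3 overlap a gene on the opposite strand. Near-identical copies (ferritin light chain, Ly6c, Trim, globin and trypsinogen genes) may share reads.

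Genes were kept by filterByExpr, scaled by TMM and tested with edgeR 4.0.16 (R 4.3.3) by a quasi-likelihood fit over all 9 libraries, with Benjamini-Hochberg adjustment over all 14199 genes. 259 immunoglobulin segments were left out of every count afterwards. CPM (counts per 1000000) use the TMM-scaled library sizes, and 3 counts correspond to 0.127 to 0.205 CPM. Intervals and floors cover counting error only. Replicates of a genotype always differed by more than sampling noise. On simulated counts for this comparison (14199 genes, 200 changed) the fit called 26% of 2-fold and 84% of 4-fold changes, and 7 unchanged genes. Whether these rates hold for the sequenced libraries, where 2274 genes passed, was not tested. The alternatives used DESeq2 1.42.0, other scalings, filters and covariates, a replicate block, and each library left out. Motifs and figures used Python 3.11.15 with numpy 2.4.6, scipy 1.17.1 and matplotlib 3.10.9.

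The members, the 28 gene lists and the 10 marker lists were chosen with earlier results of these data known. Named genes were, among genes past the threshold with no overlap of the libraries and a mean of at least 5 CPM, the 10 highest and 10 lowest by fold change and by difference in CPM. To these were added the 3 members of each list with the smallest p-value, a fixed panel of 15 genes, and the 3 highest and 3 lowest predicted genes or pseudogenes. Abca3, Bach2, Blk, Blnk, Calr, Canx, Ccr9, Cd28, Cd74, Cd79a, Ciita, Cxcr4, Dnajc3, Edem2, Fth1, H2-Eb1, Ifit3, Il6st, Irf7, Isg15, Itgb7, Manf, Os9, Pdia5, Slc2a3 and Stt3a fall outside this rule and were chosen after their values were seen. Some genes are not reported here.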

Additional observations from a re-analysis of the deposited data

How the results depend on the processing

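The count of 2274 genes was 2360 with DESeq2 size factors, 3029 with library size alone, 2381 without immunoglobulin genes, 2394 without a filter, 1518 over genes of at least 5 CPM, 1654 in a fit of the 6 libraries, 1987 with an Xist covariate and 3272 by DESeq2's Wald test. It moved further to 39 with the marker covariate, to 745 at an adjusted p under 0.01 and to 1340 with a fold change of at least 2, and the last 2 hold fewer genes by construction. Leaving out 1 library gave 1024 to 5379. The cause of the other shifts was not tested. A replicate block gave 2680 genes, but the numbers do not pair the mice: deviations of same-numbered libraries correlated at −0.219, 0.003 and 0.181.

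List medians changed sign with the marker covariate for COPII and COPI transport (−0.142), stress sensors (−0.022), plasma cell regulators (−0.315), autophagy (0.132), peroxide defence (0.08), proteasome (−0.05), immunoproteasome (−0.293) and lipid synthesis (−0.236). With library size alone they did so for autophagy (0.095), glycolysis (0.007), DNA replication (0.003), the BCL2 family (0.189) and heat shock (0.186), and without kFRA replicate 2 for the BCL2 family (0.106), heat shock (0.111) and lipid synthesis (−0.02). Among the genes named, the marker covariate turned the log2 fold changes of Canx (−0.171), Cxcr4 (−0.817), Fth1 (0.054), Irf4 (−0.732), Mcl1 (−0.401), Mki67 (0.236), Pdia5 (0.215), Pold1 (0.036), Sdc1 (−0.232), Stt3a (−0.801) and Xbp1 (−0.454). Of these, Pdia5 and Pold1 had passed the threshold.

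Cd28 turned to 0.165 with library size alone, 0.005 without immunoglobulin genes and 0.003 in the 6 libraries. Mki67 turned to 0.153 with library size alone. With 1 library left out, Cd28 ranged from −0.092 to 0.028, Cxcr4 from −0.01 to 0.427, Mcl1 from −0.058 to 0.217 and Mki67 from −1.025 to 0.137. Of these 4 genes none had passed with all libraries, and Mki67 passed without kFRA replicate 2.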

Other observations

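A run of the Trim family on chromosome 7 (104218793 to 104507849, GRCm38), which encodes proteins of antiviral defence, was chosen after its values were seen. Of 12 genes tested in it 8 fell and none rose, against 9.53% and 6.78% of all genes. Trim5 was at 1.03, 1.05 and 0.753 CPM in kFRA and 21.1, 19.6 and 10.6 CPM in WT (log2 fold change −4.17, edgeR adjusted p = 5.51e-05). Trim30d was at 4.24, 6.47 and 4.33 CPM against 75.9, 40.4 and 32.3 CPM (−3.30, edgeR adjusted p = 0.000184). Reads may be shared between these copies.

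Fosb, Fos and Jun, 3 early response genes chosen after their values were seen, were above WT in every kFRA library, and none passed the threshold. Fosb was at 459, 165 and 552 CPM in kFRA and 38.8, 36.8 and 47.0 CPM in WT (log2 fold change 3.26, SE 0.99, edgeR adjusted p = 0.0502). Fos was at 933, 604 and 976 CPM against 245, 359 and 441 CPM (1.27, edgeR adjusted p = 0.192), and Jun at 804, 661 and 648 CPM against 504, 288 and 428 CPM (0.79, edgeR adjusted p = 0.243). In DH-LMP2A the 3 libraries ranged from 6.13 to 256 CPM for Fosb. Fosb passed without kFRA replicate 2.

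Other surface and enzyme genes chosen in the same way were also high in kFRA. Ly6d, a further member of the Ly6 family, was at 584, 379 and 552 CPM against 99.9, 121 and 167 CPM (log2 fold change 1.97, edgeR adjusted p = 0.0012). Cd24a, a membrane glycoprotein of immature B cells, was at 545, 415 and 412 CPM against 125, 173 and 151 CPM (1.61, edgeR adjusted p = 0.00082). Ggh, a hydrolase of folate metabolism, was at 86.2, 75.4 and 92.8 CPM against 12.3, 9.84 and 13.1 CPM (2.85, edgeR adjusted p = 5.88e-06). The DH-LMP2A libraries were at a like level for Ggh, at 54.8 to 75.7 CPM. Plxdc1, a membrane receptor, was low there, at 0.418 to 0.635 CPM, and in WT, at 0.764 to 2.14 CPM, against 9.37, 21.9 and 10.8 CPM in kFRA.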
